A study of Mus musculus with 2 samples.

Results

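The enzymes that add or remove histone methyl groups, together with the histone deacetylases, were examined for occupancy of their promoters by the transcription factor NRF1 in mouse skeletal muscle. The members were the protein-coding genes whose symbols start with Kdm2 to Kdm8, Kmt2, Kmt5, Setd1 to Setd9, Hdac, Sirt1 to Sirt7 or Prmt1 to Prmt9, with Kdm1b added and with Hdac1 and Hdac2 left out. The rule used gene names only and no measured value, although the members were chosen with earlier results of these data known. The rule took 57 of the 21000 protein-coding genes in the mm10 annotation of RefSeq. The genes fell into 17 lysine demethylases (Kdm), 16 genes of lysine methyltransferase families (Kmt2, Kmt5 and Setd), 9 zinc-dependent deacetylases (Hdac), 7 sirtuins (Sirt) and 8 arginine methyltransferases (Prmt).

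NRF1 occupancy had been measured by ChIP-seq, in which an antibody pulls down a protein with the DNA it occupies and the recovered DNA is sequenced. The labels give 2 libraries, both from skeletal muscle of wild-type mice and both with the NRF1 antibody, without the age or sex of the animals, and no other genotype or treatment was in the series. The study's reporting summary states that its tissues came from male mice. Against its label, the library of replicate 2 is listed as input DNA in the study's reporting summary, and all peaks are named after the library of replicate 1. A single list of 3226 peaks was deposited, so no value below has a replicate error, no test between conditions was possible, and the read depth behind the peaks is unknown. Because the list holds peaks and no measure of expression, the markers of the tissue could not be checked in it, and whole muscle also contains nuclei other than those of myofibers.

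Methyl groups on histone lysines and arginines mark active or silent chromatin according to the residue. Kmt and Setd enzymes write lysine marks, Kdm enzymes erase them, and Prmt enzymes methylate arginines in histones and in many other proteins. Deacetylation by Hdac enzymes and by the NAD-dependent sirtuins tightens chromatin and also acts on proteins outside the nucleus. In muscle, class IIa deacetylases such as Hdac4 and Hdac5 are known to bind MEF2 and to repress its target genes. NRF1, nuclear respiratory factor 1, binds a GC-rich palindrome in promoters and is best known as an activator of nuclear genes for mitochondria.

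In these data the palindrome was read as the most frequent self-complementary run of 10 bases within 100 bp of the summits, the positions of highest signal in the peaks. It was GCGCATGCGC, present without mismatch near 349 of the 3226 summits. The following sequences show it in the promoter peaks of members, because this run of bases is what the occupied promoters can be compared by. They are read 5′ to 3′ on the strand of the gene from the RefSeq copy of GRCm38 (mm10), and capitals mark the 10 bases of the best copy within 100 bp of the summit (for Prmt2, Setd6 and Kdm3a, the copy nearest to it). Exact copies came first, at Kdm5c (chrX:152232933-152232962), Kmt2c (chr5:25499620-25499649), Sirt5 (chr13:43365594-43365623) and Sirt6 (chr10:81627690-81627719).
Kdm5c: tctagagactGCGCATGCGCatcactggcc
Kmt2c: gtagcgcgggGCGCATGCGCggactcagcc
Sirt5: gccccatcccGCGCATGCGCgatggggtgc
Sirt6: catcaggaggGCGCATGCGCtctggaaaga

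Copies with 1 mismatch followed. They lay at Kdm4c (chr4:74251947-74251976), Kdm3a (chr6:71633491-71633520), Setd6 (chr8:95715833-95715862), Kdm2a (chr19:4397427-4397456), Hdac4 (chr1:92180910-92180939), Prmt2 (chr10:76237889-76237918) and Sirt7 (chr11:120625019-120625048). With positions counted from 1 at the 5′ end of the palindrome, the substitutions were A5G at Kdm4c and Kdm3a, T6C at Setd6, T6G at Kdm2a, A5C at Hdac4, A5T at Prmt2 and C10T at Sirt7.
Kdm4c: ggcgccccgtGCGCGTGCGCagcgaacagc
Kdm3a: gccccttctgGCGCGTGCGCaggagccccc
Setd6: ggaggccggtGCGCACGCGCacgcgcgatt
Kdm2a: cgcgactggcGCGCAGGCGCaggcacccgg
Hdac4: ggggcccgccGCGCCTGCGCactccctctg
Prmt2: tatacacactGCGCTTGCGCaggacaccca
Sirt7: ggccgggcccGCGCATGCGTctctgtagct
In 6 of these 7 promoters the mismatch fell on the central A or T, and the outer GCGC arms were intact. Sirt7 was the exception, with its substitution on the last base. A matching share over all promoter peaks with 1 mismatch was not taken. A5G and T6C give the same site read from opposite strands, and so do A5C and T6G. The form shared by Kdm3a, Kdm4c, Kdm5c and Setd6 (GCGCGTGCGC, or GCGCACGCGC on the other strand) lay near the summits of 16.6% of the 2607 promoter peaks. The form at Hdac4, Kdm2a and Kdm3a (GCGCAGGCGC or GCGCCTGCGC) lay near 23.4% of them, the form at Prmt2 near 5.14% and the form at Sirt7 near 7.02%.

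A peak was assigned to a promoter when its summit lay from 1000 bp before to 100 bp after any start of a known transcript of the gene. By this rule 22 of the 57 members, 38.6%, had a promoter peak, each of them 1 peak, whereas 13.4% of all protein-coding genes had one. Peaks were found in every role. The share was 47.1% among the lysine demethylases (8 of 17), 42.9% among the sirtuins (3 of 7), 37.5% among the arginine methyltransferases (3 of 8), 33.3% among the zinc-dependent deacetylases (3 of 9) and 31.2% among the lysine methyltransferase families (5 of 16). With 7 to 17 genes in a role, a single gene moves these shares by several percentage points, and the roles were not tested against each other.

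**Figure D1:**
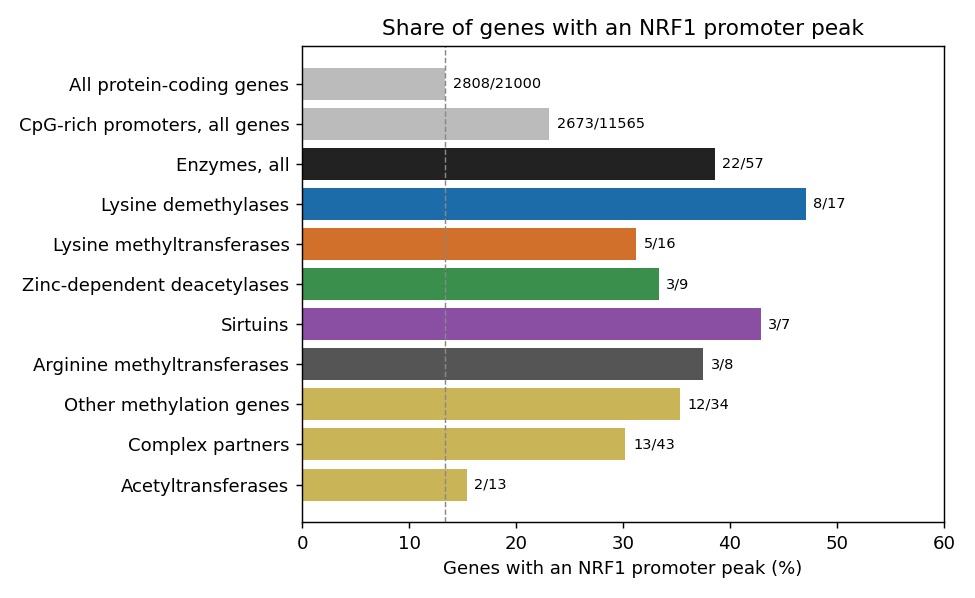
Share of genes with an NRF1 promoter peak (x axis, percent), in all protein-coding genes, in those with a CpG-rich promoter, in the 57 enzyme genes, in each role and in 3 lists of related genes, with the number of genes with a peak and in all beside each bar. The shares of the 5 roles, from 31.2% to 47.1%, are set beside 13.4% for all protein-coding genes, drawn as a dashed line.

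NRF1 peaks are mostly at promoters rich in CpG, so the members were also read against such promoters alone. A promoter was counted as CpG-rich when the bases within 200 bp of any start had at least 50% GC and an observed over expected CpG ratio of at least 0.6. This held for 51 of the 57 members (89.5%) and for 55.1% of all protein-coding genes. Of the 51 members, 20 had a promoter peak, 39.2%, and of all CpG-rich genes 23.1% had one. The gap between the members and their background was therefore smaller within CpG-rich promoters than over all genes, and the part that base composition has in it was not tested further.

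The base composition of promoters with and without a peak overlapped among the members. The median GC content was 65.7% (37.2% to 82.3%) in the 22 genes with a promoter peak and 66.1% (44.9% to 83%) in the 35 without. The median CpG ratio was 0.887 (0.619 to 1.31) in the former and 0.841 (0.2 to 1.1) in the latter. Both ranges overlap over most of their length. Of the 6 members that were not CpG-rich, Kdm5c and Kdm5d had a promoter peak and Kdm4a, Kdm6b, Hdac8 and Hdac9 did not, beside 1.43% of the 9435 genes that were not CpG-rich. The paralogues Kdm5c and Kdm5d missed the definition by their GC content, which was 49.6% at Kdm5c and 37.2% at Kdm5d.

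**Figure D2:**
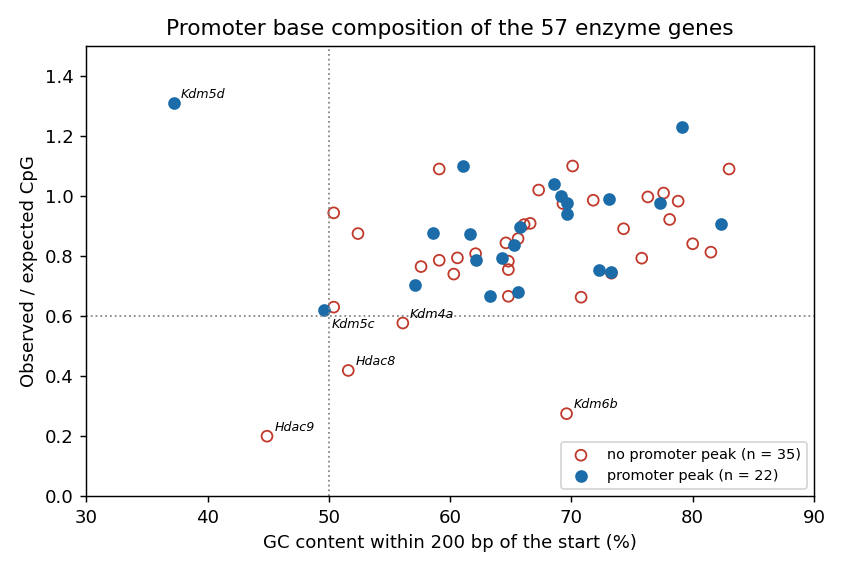
GC content (x axis, percent) against the ratio of observed to expected CpG (y axis) within 200 bp of a start, 1 point per member, for a CpG-rich start where the gene has any and otherwise for the start with the highest ratio. Filled points are the 22 members with a promoter peak, open points the 35 without, dotted lines are the limits of 50% and 0.6, and the 6 named genes fell outside them.

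The deposited fold enrichment, the ratio of ChIP signal to the control background, had a median of 12.4 over the 22 member peaks, with quartiles of 9.17 and 15.5 and a range of 4.12 to 22.5. Over all 2607 promoter peaks the median was 11.1, the quartiles 7.9 and 16.4 and the range 3.01 to 49.9. The strongest member peak ranked 221 of the 2607, and 14 of the 22 lay above the overall median. The median −log10 q was 27.8 in members and 25.3 over all promoter peaks, and the median width was 286 bp and 296 bp.

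**Figure D3:**
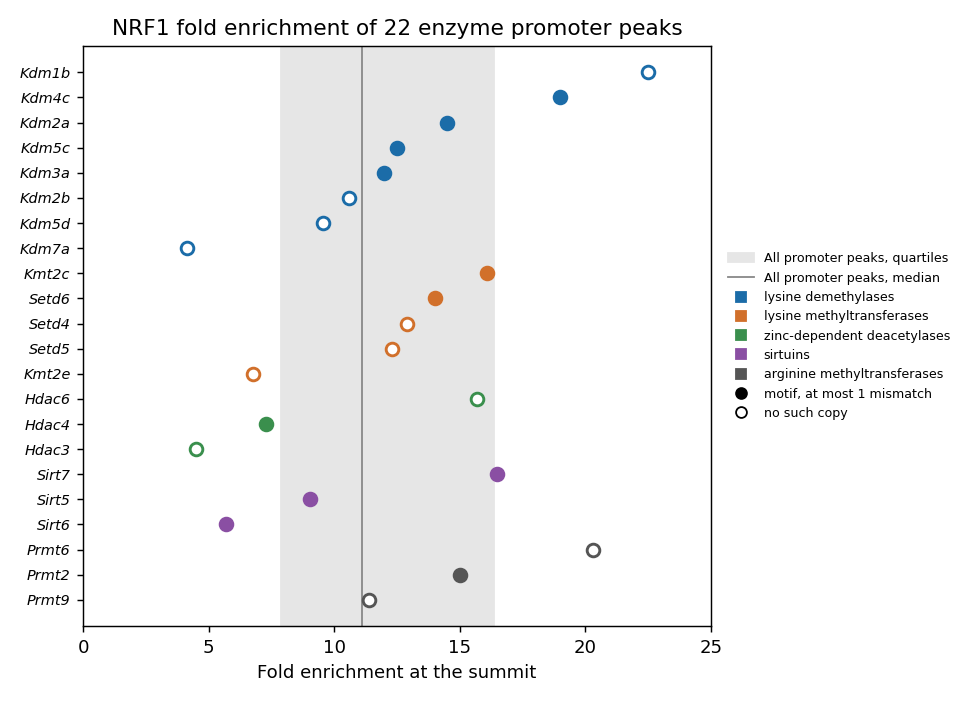
Deposited fold enrichment (x axis) of the promoter peak of each of the 22 members, grouped and coloured by role, as single deposited values without replicate error, filled where the palindrome with up to 1 mismatch lies within 100 bp of the summit and open where not. The grey band and line are the quartiles (7.9 and 16.4) and the median (11.1) of all promoter peaks, and the highest and lowest members, Kdm1b at 22.5 and Kdm7a at 4.12, lie outside the band.

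Among the demethylases, the peak at Kdm1b was the strongest of all members. Kdm1b (also called LSD2) is a flavin-dependent demethylase and the paralogue of LSD1. Its peak (chr13:47043239-47043592) had a fold enrichment of 22.5 and a −log10 q of 67.0, with the summit 27 bp before the start, and 91.4% of promoter peaks were lower. The same summit lay 255 bp before the start of Tpmt on the other strand, so the peak belongs to both promoters. Within 100 bp of the Kdm1b summit the best match to the palindrome had 3 mismatches.

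The next demethylase peak was at Kdm4c, whose product removes methyl groups from lysines 9 and 36 of histone H3. It had a fold enrichment of 19.0 (chr4:74251737-74252182) with the summit 66 bp after the start, in the non-coding part of an exon, and 84.3% of promoter peaks were lower. This start is an alternative start of Kdm4c, 9382 bp downstream of its first, and no promoter peak was assigned to the gene when only the most upstream start was used. Kdm2a and Kdm2b are paralogues that carry a zinc finger for unmethylated CpG and demethylate lysine 36 of histone H3. The peak at Kdm2a (chr19:4396948-4397663) was 716 bp wide, the widest of the members, with a fold enrichment of 14.5 and its summit 355 bp before the start. That at Kdm2b (chr5:122989210-122989385) had a fold enrichment of 10.6 with the summit 178 bp before the start. Of the known starts, that of the non-coding transcript A930024E05Rik was nearer to this summit, at 77 bp, so that the peak lay in both promoters. A predicted start of Kdm2b itself lay 7 bp from the summit, and a start of Kdm2b in the GENCODE annotation 29 bp from it.

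The X-linked Kdm5c and its Y-linked paralogue Kdm5d, which demethylate lysine 4 of histone H3, both had a promoter peak, whereas Kdm5a and Kdm5b had none. The fold enrichment was 12.5 at Kdm5c (chrX:152232785-152233095), with the summit 305 bp before the start. It was 9.54 at Kdm5d (chrY:897516-897818), with the summit 88 bp before the start. Kdm5c held 3 copies of the palindrome within 100 bp of the summit, and they are shown together in the 136 bases of chrX:152232832-152232967, with the copies in capitals.
Kdm5c: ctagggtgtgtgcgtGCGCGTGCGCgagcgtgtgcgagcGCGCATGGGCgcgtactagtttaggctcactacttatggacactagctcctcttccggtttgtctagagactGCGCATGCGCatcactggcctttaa
The first copy carries A5G, the second C8G and the last is exact. The form of the second copy lay near the summits of 5 promoter peaks (0.192%), the rarest form among the members. At Kdm5d no close match lay within 100 bp of the summit, where the best had 5 mismatches, but a copy with 1 mismatch lay inside the peak, 150.5 bp from the summit.

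Kdm3a demethylates lysine 9 of histone H3. Its peak (chr6:71633365-71633622) had a fold enrichment of 12.0 and lay far upstream, with the summit 585 bp before the start. It held 2 copies of the palindrome in the 103 bases of chr6:71633486-71633588, read on the minus strand, with A5C in the first and A5G in the second.
Kdm3a: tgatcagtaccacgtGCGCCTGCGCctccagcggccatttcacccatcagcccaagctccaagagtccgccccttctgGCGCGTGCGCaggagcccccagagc
The peak at Kdm7a, a demethylase of lysines 9 and 27 of histone H3, was the weakest of the members. Its fold enrichment was 4.12 and its −log10 q 2.83 (chr6:39206745-39206966), and 1.19% of promoter peaks were lower.

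No promoter peak was found at Kdm3b, Kdm4a, Kdm4b, Kdm4d, Kdm5a, Kdm5b, Kdm6a, Kdm6b or Kdm8. Kdm6a and Kdm6b, which remove methyl groups from lysine 27 of histone H3, were thus both without by known starts. Kdm6b gained a promoter peak when predicted transcripts were added. At Kdm4a, Kdm8 and Kdm6b a peak lay inside the gene beyond the promoter, and the share of all protein-coding genes with such a peak was not counted. At Kdm4a (chr4:118179809-118180116) the summit lay 109 bp after the start, 9 bp past the edge of the promoter, in the non-coding part of an exon and with a fold enrichment of 12.3. At Kdm8 (chr7:125444621-125445204) it lay in an intron 338 bp after the start, with a fold enrichment of 12.4. At Kdm6b (chr11:69401345-69401722) it lay in an intron 14705 bp after the nearest start, with a fold enrichment of 11.1, and another peak lay 2662 bp before the start. The calls at Kdm4a and Kdm8 therefore depend on where the promoter is taken to end.

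In the lysine methyltransferase families, 5 genes had a promoter peak and 3 of these peaks lay more than 500 bp upstream of the start. Kmt2c (also called MLL3) methylates lysine 4 of histone H3 at enhancers. Its peak (chr5:25499519-25499776) had a fold enrichment of 16.1, the highest in these families, and its summit lay 848 bp before the Kmt2c start and 3.5 bp from the centre of an exact palindrome. The start of the non-coding transcript 4831440E17Rik was nearer, 166 bp from the summit. Kmt2d, which acts at enhancers as Kmt2c does, had no promoter peak, and the nearest summit lay 10356 bp before its start.

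Kmt2e and Setd5 are SET-domain proteins for which enzymatic activity on histones is disputed. At Kmt2e (chr5:23433816-23433994) the fold enrichment was 6.75 and the summit lay 552 bp before the start. At Setd5 (chr6:113076411-113077117) it was 12.3 and the summit lay 835 bp before the start. At both, a non-coding gene started nearer to the summit than the member itself. The summit lay inside 5031425E22Rik, 441 bp after its start, at Kmt2e, and inside Gt(ROSA)26Sor, the locus widely used for transgene insertion, 440 bp after its start, at Setd5.

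Setd6, whose product methylates the NF-kappaB subunit RelA, and Setd4 had their summits near the start. The fold enrichment was 14.0 at Setd6 (chr8:95715710-95716012), 73 bp before the start, with 2 overlapping copies of the palindrome. It was 12.9 at Setd4 (chr16:93603691-93604223), 91 bp before the start. At Setd4 an exact copy of the palindrome lay inside the peak but 167.5 bp from the summit. The remaining 11 genes, Kmt2a, Kmt2b, Kmt2d, Kmt5a, Kmt5b, Kmt5c, Setd1a, Setd1b, Setd2, Setd3 and Setd7, had no promoter peak. They include the genes for methylation of histone H4 lysine 20 (Kmt5a, Kmt5b, Kmt5c), Setd2, the enzyme for trimethylation of histone H3 lysine 36, and Setd3, the histidine methyltransferase of actin. Setd1a had a peak (chr7:127777109-127777584) with a fold enrichment of 7.89, 121 bp after the start and thus 21 bp past the promoter edge.

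Of the zinc-dependent deacetylases, Hdac3, Hdac4 and Hdac6 had a promoter peak. Hdac6 is a mainly cytoplasmic deacetylase of tubulin, and its peak (chrX:7948007-7948293) had the highest fold enrichment of the class, 15.7, with the summit 220 bp before the start. Hdac4 had a fold enrichment of 7.29 (chr1:92180759-92181043) with the summit 570 bp before the known start. A predicted start of the same gene lay 33 bp from the summit, whereas the GENCODE start again lay 570 bp from it. Hdac3, the catalytic subunit of the NCoR and SMRT corepressor complexes, had a peak near the lower end of the list (chr18:37954986-37955128), with a fold enrichment of 4.49 and a −log10 q of 2.28, the lowest of the members. Its summit lay 123 bp before the Hdac3 start and 448 bp before that of Rell2. Hdac5, Hdac7, Hdac8, Hdac9, Hdac10 and Hdac11 had no promoter peak. Thus Hdac4 alone of the class IIa genes Hdac4, Hdac5, Hdac7 and Hdac9 had one, and the nearest summit to a start was at 45237 bp for Hdac5, 109033 bp for Hdac7 and 1465115 bp for Hdac9.

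Among the sirtuins, Sirt5, Sirt6 and Sirt7 had a promoter peak and Sirt1, Sirt2, Sirt3 and Sirt4 did not. Sirt7, a nucleolar deacetylase of histone H3 lysine 18, had the highest fold enrichment, 16.5 (chr11:120624937-120625204), with the summit 44 bp before the start. Sirt5, a mitochondrial enzyme that removes succinyl groups, had 9.04 (chr13:43365489-43365699), with the summit in an intron 72 bp after the start. Sirt6, a chromatin-bound deacetylase of histone H3 lysine 9, had 5.69 (chr10:81627624-81627800), with the summit 122 bp before the start and 852 bp before that of Ankrd24. The side of the start depended on the annotation for both. With GENCODE starts the Sirt5 summit lay 57 bp before the start and the Sirt6 summit 109 bp after it. A predicted start put the Sirt6 summit 104 bp after it. The order of these 3 values did not follow the match to the palindrome, since Sirt5 and Sirt6 held an exact copy and Sirt7 a copy with 1 mismatch. Of the 3 mitochondrial sirtuins, Sirt3, Sirt4 and Sirt5, only Sirt5 had a promoter peak. The nearest summit to Sirt3 lay 290306 bp from its start, and that to Sirt1, a mainly nuclear deacetylase, 91029 bp.

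The 3 arginine methyltransferases with a promoter peak all had their summits within 33 bp of the start. Prmt6 places the asymmetric mark on histone H3 arginine 2. Its peak (chr3:110250871-110251217) was the second highest of the members, with a fold enrichment of 20.3, the summit 3 bp after the start and 88.0% of promoter peaks lower. Prmt2 had 15.0 (chr10:76237699-76238093), 33 bp before the start, and Prmt9, which methylates a splicing factor, had 11.4 (chr8:77549262-77549501), 10 bp before the start. Prmt2 held 3 copies of the palindrome within 100 bp of its summit, all with A5T, and a weaker second peak in an intron 353 bp after the start (chr10:76237489-76237624) with a fold enrichment of 6.33. Prmt1 and Prmt5, which make most of the asymmetric and symmetric arginine methylation in cells, had no promoter peak, nor had Prmt3, Prmt7 and Prmt8. The nearest summit to Prmt1 lay 11083 bp from its start, in the promoters of Bcl2l12 and Irf3.

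Both of the strongest member peaks, at Kdm1b and Prmt6, lacked the palindrome with up to 1 mismatch. The 30 bases around each summit are given to show the bases at the strongest member peaks (chr13:47043458-47043487, plus strand, and chr3:110250982-110251011, minus strand). Capitals mark TGCGC or GCGCA, an arm of the palindrome with its inner base on either strand.
Kdm1b: cgagatTGCGCAgtggcggaaatcatcggg
Prmt6: accGCGCAacgaatgctgggggtcggctgc
At Kdm1b the runs on both strands overlap, which gives TGCGCA. Such an arm is common, however, since 34% of the windows reaching 100 bp to either side of all 26208 protein-coding starts held TGCGC or GCGCA, while 6.75% held the palindrome with up to 1 mismatch.

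Over the 22 member peaks, 11 (50%) had the palindrome with up to 1 mismatch on either strand within 100 bp of the summit, beside 65.9% of all 2607 promoter peaks. An exact copy was present in 4 member peaks (18.2%) and in 10.9% of all promoter peaks. With up to 2 mismatches the shares were 81.8% and 91%. Of the 11 member peaks without the palindrome, 9 (81.8%) held an arm of it, beside 88.9% of the 888 promoter peaks without it, and Hdac3 and Kdm5d held neither within 100 bp. Where present, the palindrome lay a median of 9.5 bp from the summit in members and 13.5 bp over the 1719 promoter peaks that held it. The distance was at most 25 bp in 10 of the 11 member peaks, Kdm5c at 25.5 bp being the exception, and in 74.7% of the 1719.

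**Figure D4:**
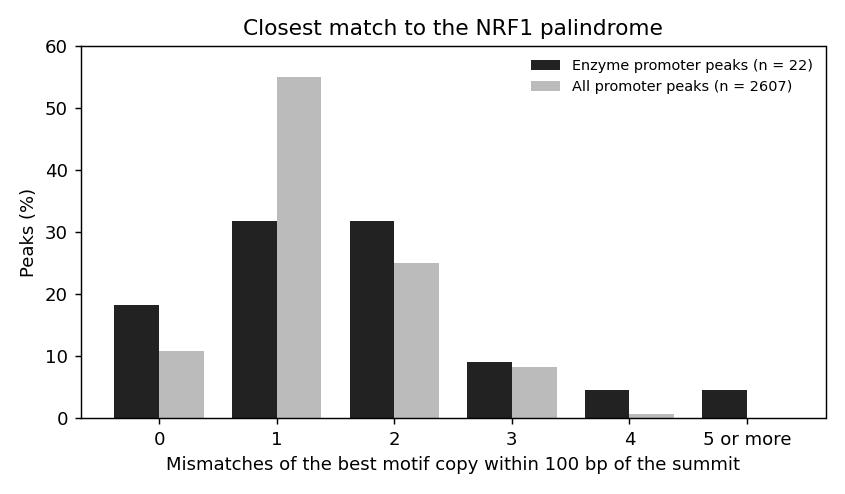
Share of peaks (y axis, percent) by the number of mismatches of the best copy of the palindrome within 100 bp of the summit (x axis), for the 22 member promoter peaks and for all 2607 promoter peaks. Members held 4, 7, 7, 2, 1 and 1 peaks from 0 mismatches to 5 or more, and 1 mismatch was the most frequent class over all promoter peaks at 55%.

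Member peaks with the palindrome had a median fold enrichment of 14.0 (5.69 to 19.0) and those without it 11.4 (4.12 to 22.5). The ranges overlapped, and the highest and the lowest member peaks were both among those without. Over all promoter peaks the medians were 12.9 with the palindrome and 8.58 without.

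The search was then turned around, from the bases to the peaks. The palindrome with up to 1 mismatch lay anywhere in the promoters of 13 members (22.8%, beside 12.1% of all protein-coding genes), and all 13 had a promoter peak. Of the 2548 protein-coding genes with such a promoter, 75.4% had one. An exact copy lay in the promoters of 5 members (8.77%, beside 1.75% of all protein-coding genes). These were Kdm5c, Kmt2c, Setd4, Sirt5 and Sirt6, all with a peak, beside 89.4% of the 368 genes with an exact copy. Counted by copies, the member promoters held 22, and all 22 lay inside a deposited peak, beside 76.2% of the 2900 copies in the promoters of all protein-coding genes. The 22 copies are those of the same 13 promoters, with 3 each at Kdm2a, Kdm5c and Prmt2, so this count adds no separate evidence. With 13 genes, the difference from the shares of all genes was not tested. The 13 genes were the 11 with the palindrome near the summit and Setd4 and Kdm5d, where it lay elsewhere in the peak.

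None of the 35 members without a promoter peak held the palindrome in the promoter with up to 1 mismatch, and their best matches had 2 to 4 mismatches. Over the 18192 protein-coding genes without a promoter peak 3.45% held it, a share at which a count of 0 among 35 genes says little about the members. The converse did not hold, because 9 of the 44 members without it had a promoter peak (20.5%), beside 4.81% of the 18452 genes without it. This pair of shares, and the shares of promoters that held the palindrome, were not counted over CpG-rich promoters alone. Such promoters made up 89.5% of members and 55.1% of all protein-coding genes. These 9 were Kdm1b, Kdm2b, Kdm7a, Kmt2e, Setd5, Hdac3, Hdac6, Prmt6 and Prmt9. They include the 2 strongest and the 2 weakest of the member peaks.

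Counted from known starts of the member, the median summit of member peaks lay farther upstream than that of promoter peaks in general. The position was 111 bp before the start in members, with quartiles at 342.5 and 35.8 bp before it, and 50 bp before the start over all promoter peaks, with quartiles at 116 and 7 bp before it. Within 100 bp of the start lay 11 of 22 member summits (50%) and 71.2% of all. More than 500 bp before the nearest known start of the gene lay 5 member summits (22.7%), beside 2.45% of all promoter summits. These 5 were Hdac4, Kdm3a, Kmt2c, Kmt2e and Setd5, and at Kmt2c, Kmt2e and Setd5 the start of a non-coding transcript was closer to the summit than the start of the member. These distances depended on the annotation. With predicted starts added, the median distance to the nearest start of the gene was 53 bp before it in members and 30 bp before it over all promoter peaks, and 3 member summits (13.6%, beside 1.69% of all) remained more than 500 bp upstream, Hdac4 and Setd5 no longer being among them. With GENCODE starts the medians were 86 and 39.5 bp before the start, and 5 member summits (22.7%, beside 2.61% of all) lay that far upstream. The share of member summits within 100 bp of the start was 68.2% with predicted starts added (78.4% of all). It was 63.6% with GENCODE starts (71.6% of all). The difference in position was not tested. Assignment to Kdm2b, Kmt2c, Kmt2e and Setd5 cannot be told apart from assignment to the neighbouring non-coding transcript. At Kdm2b, a predicted and a GENCODE start of the gene lay 7 and 29 bp from the summit. The known start of A930024E05Rik lay 77 bp from it.

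**Figure D5:**
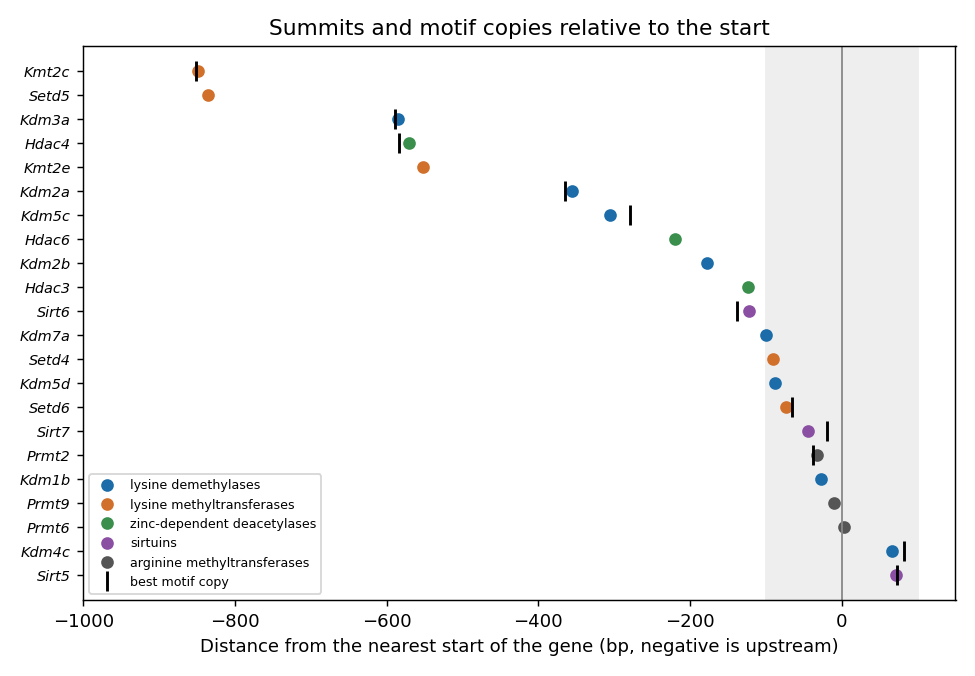
Position of the summit of each member promoter peak relative to the nearest known start of the gene (x axis, bp, negative is upstream), coloured by role, with a vertical tick at the best copy of the palindrome where it has up to 1 mismatch within 100 bp of the summit and grey shading within 100 bp of the start. Of the 22 summits, 8 lie within the 100 bp before the start or on it, 3 after it, and 5 more than 500 bp upstream.

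A member peak also lay in the promoter of another gene in 7 cases (31.8%), beside 17.3% of all promoter peaks. The partners were the protein-coding genes Tpmt (with Kdm1b), Rell2 (with Hdac3) and Ankrd24 (with Sirt6), the microRNA gene Mir6936 (with Sirt7), and non-coding transcripts at Kdm2b, Kmt2c and Kmt2e. For 18 of the 22 peaks the nearest start of any known transcript was that of the member (81.8%), the others being Kdm2b, Kmt2c, Kmt2e and Setd5. Of the 2556 peaks in promoters of protein-coding genes, 96.3% had as nearest known start that of a protein-coding gene to whose promoter they belonged.

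In the 35 members without a promoter peak, the distance from a start to the nearest summit had a median of 76667 bp and ran from 109 bp (Kdm4a) to 2228061 bp (Prmt3). The median was 186975 bp over the 18192 protein-coding genes without a promoter peak and 127706 bp over those of them with a CpG-rich promoter. It was under 2000 bp for Kdm4a, Kdm8 and Setd1a (8.57%, beside 1.92% of the 18192 genes), under 10000 bp for these and Kdm6b (11.4%, beside 5.16%), and under 100000 bp for 20 members (57.1%, beside 35.7%). Over the genes with a CpG-rich promoter and no promoter peak, the 3 shares were 3.01%, 6.69% and 43.3%. Of the 35 members, 31 were CpG-rich. The absence of a peak says that no site passed the threshold at this unknown depth, and not that NRF1 was absent.

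Genes of related function outside the naming rule were counted in the same way from 3 lists. Of 34 other genes of histone methylation, 12 (35.3%) had a promoter peak, 8 of them with the palindrome. The 10 highest were Ehmt1 (fold enrichment 31.0), Ezh1 (26.5), Prdm9 (15.3), Smyd3 (14.7), Carm1 (9.45), Suv39h1 (9.44), Suv39h2 (9.19), Smyd4 (7.51), Ezh2 (7.23) and Dot1l (6.38). Ehmt1 forms the main dimethyltransferase of histone H3 lysine 9 with Ehmt2, which had no promoter peak. Ezh1 and Ezh2 are the alternative catalytic subunits of the Polycomb methyltransferase. Kdm1a, the gene for LSD1, named here after its value was seen because it is the paralogue of Kdm1b, had a fold enrichment of 4.29 with the summit 10 bp after the start, against 22.5 at Kdm1b. The −log10 q at Kdm1a was 2.84. Its peak did not pass a fold enrichment of at least 5 or a q-value of at most 1e-05, and 11 genes of this list passed either limit.

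A list of 43 genes covered subunits of deacetylase complexes, of complexes around the Kmt2 and Setd1 enzymes, of the Polycomb methyltransferase and of the Prmt5 complex. It included Hdac1 and Hdac2, which the naming rule left out, and partners of Ezh1 and Ezh2, so not all its genes are partners of members. Of the 43 genes, 13 (30.2%) had a promoter peak, 10 of them with the palindrome. The highest were Pagr1a (32.2), a subunit of the complexes of Kmt2c and Kmt2d, Rbbp7 (30.8), a histone chaperone of deacetylase and Polycomb complexes, and Mbd3 (29.5), a subunit of the NuRD complex. Eed (15.1), Wdr5 (14.2), Sap18 (13.7), Hdac2 (12.6), Sin3b (11.1), Gatad2a (10.1) and Dpy30 (9.21) followed. Of 13 histone acetyltransferases, which act opposite to the deacetylases, Kat2a (9.44) and Kat7 (7.27) had a promoter peak (15.4%). These shares are set beside 13.4% for all protein-coding genes and 23.1% for CpG-rich ones, and the lists were not tested against the members. Counted over CpG-rich genes only, a promoter peak was present in 12 of 27 other histone methylation genes and 13 of 42 complex genes. It was present in 2 of 13 acetyltransferases, and in 20 of 51 members.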

How the data were processed

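Per the labels and the study's methods, the authors mapped reads to mm10 with Bowtie, kept unique reads and called peaks with MACS2 against input DNA; the methods name the broad option, while the deposited list has the narrow layout with summits. The deposited values used were the fold enrichment (a ratio to the control background), the −log10 q-value and the peak and summit positions. The methods set the handling of duplicate reads at peak calling to automatic. Such handling and unique mapping can limit signal at strong and repeated sites, and the depth per library is not given in the sources used here. The deposited whole-number score and the −log10 p-value entered no result. The list may not be that from which the study counted its sites, because the number of peaks differs and 7 peaks, none of them a member promoter peak, had a q-value above the limit of 0.01 in the methods.

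Positions were written 1-based. Starts, gene parts and bases came from RefSeq for GRCm38.p6, with known transcripts only, read with pysam 0.24.0, pandas 2.3.3 and numpy 2.4.6 in Python 3.11.15. Counts were made without tests, since there was 1 peak list. The counting steps were tested on simulated data. The members and lists were chosen with earlier results of these data known. All members with a promoter peak were named, and of each related list the 10 with the highest fold enrichment where more than 10 had a peak. Positions relative to a start depend on the annotation and were also taken from predicted and GENCODE starts. Alternatives covered the peak threshold, the promoter window, overlap, annotation, mismatches, motif distance and the definition of CpG-rich.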

Additional observations from a re-analysis of the deposited data

How the results depend on the processing

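Of 83 alternative values for 15 results, 78 stayed within 1.5 times the reported count or close to the reported median. The number of members with a promoter peak was 20 of 57 for peaks with a q-value of at most 1e-05 and for a fold enrichment of at least 5 (both without Hdac3 and Kdm7a, and 12.8% of all genes called), and 25 for any overlap of 1 bp or a window of 2000 bp before to 500 bp after a start (both with Kdm4a, Kdm8 and Setd1a added, 14.2% and 14.7% of all genes). It was 20 for a window of 500 bp on either side (14.1% of all genes), which added Kdm4a, Kdm8 and Setd1a and lost Hdac4, Kdm3a, Kmt2c, Kmt2e and Setd5, so that lysine methyltransferases fell from 5 to 3. With predicted transcripts it was 24 (Kdm4a and Kdm6b added, 13.4% of all genes), and with 1 start per gene 21 (Kdm4c lost, 12.5%). With GENCODE M21 starts, chosen after seeing the data, it was 23 (Kdm4a added, 13.2%). The median member summit lay 111 bp before a known start, 53 bp with predicted starts added and 86 bp with GENCODE starts, and these comparisons of position were also chosen after seeing the data. Peaks inside members beyond promoters fell from 5 to 1 with the window of 2000 bp before to 500 bp after a start, because that window takes in the others. Peaks with the palindrome numbered 4 without mismatch and 18 with up to 2 mismatches, against 11 with 1. Among members with CpG-rich promoters, 16 of 40 had a peak under the stricter definition (26.6% of all such genes) and 14 of 36 when measured over the whole promoter (27.7%). No paired analysis was possible because the single peak list carries no separate values per library, and for the same reason no replicate could be left out. The unknown depth limits every count of genes without a peak.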
